A study of Homo sapiens with 20 samples.

Results

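Expression was compared between 3 ampullary cancer cell lines, SNU-478, SNU-869 and TGBC18TKB, and 16 lines from the other biliary sites, out of 20 established human biliary tract cancer lines in the series. The ampullary lines were chosen by their anatomical label. The 16 others comprised 7 gallbladder lines (TGBC2TKB, TGBC14TKB, G415, SNU-308, OCUG-1, Mz-ChA-2 and NOZ), 5 extrahepatic bile duct lines (EGI-1, Sk-ChA-1, SNU-1196, SNU-245 and TFK-1) and 4 intrahepatic bile duct lines (HuCCT1, HuH28, SNU-1079 and TKKK). OZ, labelled both extrahepatic and intrahepatic, was left out. All lines were grown untreated in DMEM with fetal bovine serum, and each gave 1 library of stranded, poly(A)-selected RNA. A line is thus the replicate, and the p-values measure the spread between lines, each of which descends from a single tumour. All 3 ampullary lines are labelled primary, as are 10 of the 16 others. SNU-478 and SNU-869 came from the KCLB repository, which also supplied 4 of the 16 others, and TGBC18TKB came from RIKEN, which supplied 5 of them.

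Total counts were 11309785 in SNU-478, 12500489 in SNU-869 and 10735498 in TGBC18TKB, against 10469013 to 15414668 in the 16 others. A count of 0 in an ampullary library allows a level of up to 0.24 to 0.279 CPM (counts scaled to a common library total), taking 3 counts as the floor for counting error. Differences below are on the log2 scale, ampullary minus the unweighted mean of the 3 other sites, and levels are CPM scaled by TMM. A gene was called at an adjusted p under 0.05 in edgeR's quasi-likelihood test over 16615 genes. The median difference over all genes was -0.11.

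The ampulla of Vater is the short channel in which the common bile duct and the pancreatic duct join before opening into the duodenum. Its lining passes over a short distance between pancreatobiliary duct epithelium and intestinal epithelium, and its tumours are commonly typed as intestinal or pancreatobiliary. Duct and gut epithelium both deliver secretory immunoglobulin to their lumen through the polymeric immunoglobulin receptor, the product of PIGR, which binds polymeric IgA at the basal surface and carries it across the cell. The lines had the epithelial keratin and adhesion transcripts of a carcinoma. KRT19 was at 1023, 1531 and 2505 CPM and EPCAM at 783, 1143 and 858 CPM in SNU-478, SNU-869 and TGBC18TKB, against medians of 1294 and 234 CPM over the 16 others. KRT7, a duct keratin, was at 1184 CPM in SNU-478 and 2290 CPM in TGBC18TKB but at 4.39 CPM in SNU-869. PTPRC, which marks leukocytes, had 0 counts in all 3 lines.

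PIGR was the only gene called in the comparison of the ampullary lines with the other sites, which is 0.00602% of the genes tested, and it was higher in the ampullary lines. Its level was 636 CPM in SNU-478, 531 CPM in SNU-869 and 8.27 CPM in TGBC18TKB, against a lowest, median and highest level of 0, 0.204 and 13.5 CPM in the 16 others. The highest of these was TFK-1, followed by EGI-1 at 3.31 CPM and HuCCT1 at 3.16 CPM, and 3 of the 16 lines had 0 counts. SNU-478 and SNU-869 thus lay far above every other line, while TGBC18TKB lay above all but TFK-1. In bulk cultures, fewer cells with a transcript and less of it per cell cannot be told apart. The ampullary mean was 392 ± 336 CPM (SD, n = 3), against 0.141 ± 0.139 CPM in gallbladder (n = 7), 3.51 ± 5.75 CPM in extrahepatic (n = 5) and 1.02 ± 1.44 CPM in intrahepatic lines (n = 4). The fitted log2 difference was 8.90 (SE 1.11, edgeR adjusted p = 0.00472).

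The repository touches this result, since the 2 highest lines share one. Among KCLB lines, SNU-478 and SNU-869 stood against 0.0988 to 0.273 CPM in the 4 others; among RIKEN lines, TGBC18TKB stood against 0 to 3.16 CPM in the 5 others. The KCLB lines alone, 2 against 4, gave a difference of 11.64 (edgeR adjusted p = 0.00352). With repository as a covariate the difference was 9.99 and the edgeR adjusted p was 1, from an unadjusted p of 6.97e-05. In that fit the lines from DSMZ and Zurich Uni. were treated as coming from the same repository. With origin as a covariate the adjusted p was 0.0624, and among primary lines only it was 0.0603. The call held when any of the 19 lines was left out, with adjusted p-values of 0.00109 to 0.041. Against single sites, which share the 3 ampullary lines, PIGR was called against gallbladder (log2 difference 11.35, edgeR adjusted p = 0.0287). The difference was 6.79 against extrahepatic lines (adjusted p = 0.753) and 8.57 against intrahepatic lines (adjusted p = 0.727).

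The sequence upstream of PIGR is shown because it is the promoter of the called gene. It covers the 250 bases before the RefSeq start site on the minus strand, chr1:206946467-206946716 of GRCh38.p14, and was read from RefSeq, not from the lines.
PIGR: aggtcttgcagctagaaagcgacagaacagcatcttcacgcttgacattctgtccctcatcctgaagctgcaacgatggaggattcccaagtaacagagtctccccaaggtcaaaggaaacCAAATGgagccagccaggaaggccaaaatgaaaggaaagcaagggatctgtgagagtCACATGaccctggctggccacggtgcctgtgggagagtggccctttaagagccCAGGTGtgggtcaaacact
Capitals mark the 3 matches to the E-box letters CANNTG, which begin 129, 72 and 19 bases before the start site; 61.8% of 35116 such windows hold at least 1 match. The CANNTG letters read alike on both strands, and the matches do not overlap. Neither the AP-1 letters TGACTCA nor the interferon-response and NF-kB motifs matched on either strand; 4.2%, 3.02% and 1.26% of the windows hold them. The GATA letters AGATAA, held by 9.17%, and the TATA box TATAAA, held by 10.7%, had no match either. A match is a description of the letters only.

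**Figure D1:**
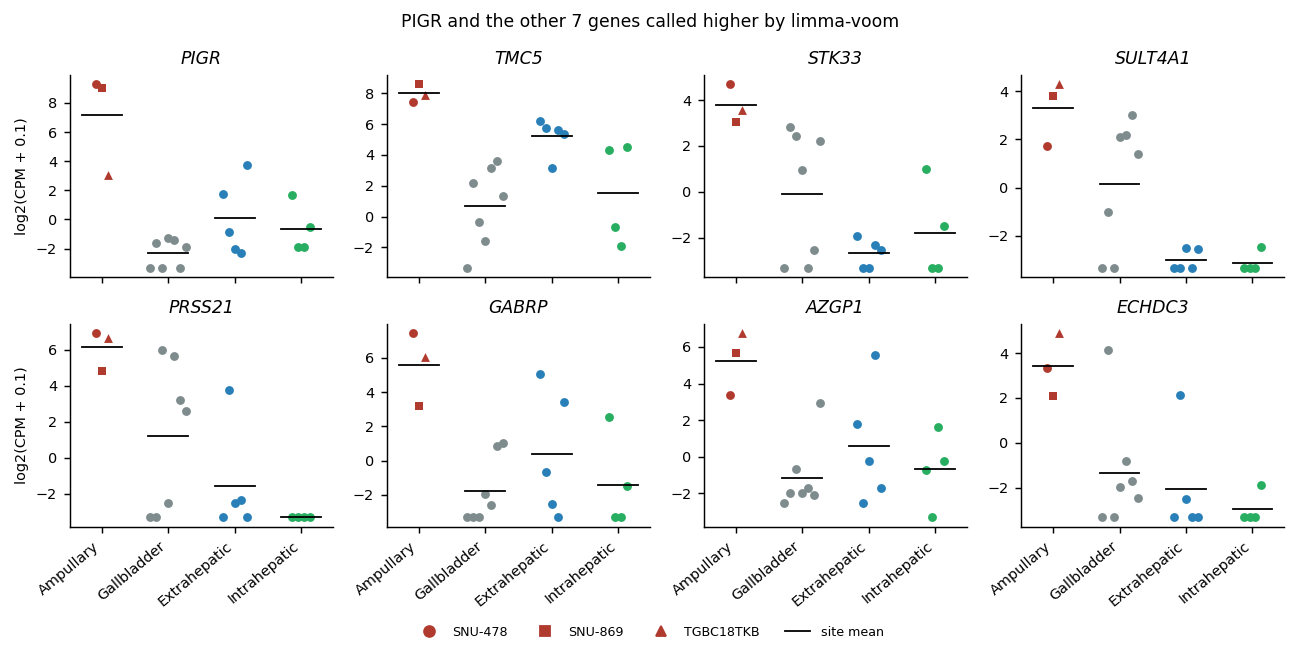
Levels of PIGR and of the 7 other genes that limma-voom called higher, as log2(CPM + 0.1) on the vertical axis, by site on the horizontal axis. Points are lines, red shapes name the ampullary lines and black bars are site means on that scale. PIGR is at 636 and 531 CPM in SNU-478 and SNU-869 and at 8.27 CPM in TGBC18TKB, below TFK-1 at 13.5 CPM.

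No gene was called lower in the ampullary lines. At an unadjusted p under 0.05 edgeR had 478 genes higher (2.88% of those tested) and 395 lower (2.38%). Against gallbladder lines it called 1 gene higher and 0 lower (605 higher, 3.64%, and 776 lower, 4.67%, unadjusted). Against extrahepatic lines it called 0 in both directions (340, 2.05%, and 308, 1.85%, unadjusted), and likewise against intrahepatic lines (386, 2.32%, and 747, 4.5%, unadjusted). With no true difference, a fraction of about 0.05 of genes would have an unadjusted p under 0.05, over both directions. In the comparison with the other sites, the higher and lower shares sum to little more than that. These shares sum to less against extrahepatic lines, and to more against gallbladder and intrahepatic lines. With limma-voom 8 genes were called higher (0.0481%) and 0 lower. DESeq2 called 21 higher (0.132%) and 112 lower (0.704%) of 15907 genes with an adjusted p. Of those 112, 84 had 0 counts in all 3 ampullary lines.

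The 8 genes called by limma-voom had all 3 ampullary lines above the median of the 16 others. Apart from PIGR they were TMC5, STK33, SULT4A1, PRSS21, GABRP, AZGP1 and ECHDC3, none of which was called by edgeR, whose adjusted p-values ran from 0.115 for SULT4A1 to 0.843 for ECHDC3. SULT4A1 encodes a brain-enriched member of the sulfotransferase family. It was at 3.23, 14 and 19.6 CPM in SNU-478, SNU-869 and TGBC18TKB, against 0, 0.035 and 7.9 CPM as the lowest, median and highest of the 16 others (log2 difference 6.34, SE 1.10). The other lines within the ampullary range were the gallbladder lines TGBC14TKB, SNU-308 and OCUG-1, whereas the extrahepatic lines averaged 0.0291 ± 0.0399 CPM (n = 5) and the intrahepatic lines 0.0211 ± 0.0421 CPM (n = 4). PRSS21, a membrane-anchored serine protease known from testis, was at 120, 28.3 and 102 CPM in the ampullary lines, against 0, 0.0378 and 63.8 CPM (log2 difference 6.72, SE 1.79). GABRP, a GABA-A receptor subunit found in epithelia, was at 172, 8.94 and 66.4 CPM, against 0, 0.115 and 33.4 CPM (log2 difference 5.39, SE 1.45). In each of these 3 genes, 2 of the ampullary lines lay above all others and the lowest ampullary line overlapped them.

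In most genes with small p-values fewer than 3 ampullary lines stood outside the range of the others. Of the 478 genes higher at an unadjusted p under 0.05, 13 (2.7%) had all 3 ampullary lines above the 16 others, 90 (18.8%) had 2, 305 (63.8%) had 1 and 70 (14.6%) had none. Of those 305, the single line was SNU-478 for 100 genes, SNU-869 for 85 and TGBC18TKB for 120. Of the 395 lower genes, 10 had all 3 lines below the 16 others, 78 had 2, 114 had 1 and 193 had none. For the 114, the single line was SNU-478 for 18, SNU-869 for 69 and TGBC18TKB for 27. All 3 lines lay above the others' median in 298 of the 478 higher genes and below it in 386 of the 395 lower genes. The genes were selected by the difference between these same lines, so the counts describe them and test nothing.

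The genes of smallest p after PIGR follow that division. MANSC1, which encodes a membrane protein, was at 3972 CPM in SNU-478, 135 CPM in SNU-869 and 33.2 CPM in TGBC18TKB, against 1.66, 46.9 and 99.9 CPM in the 16 others (log2 difference 4.88, SE 0.80, edgeR adjusted p = 0.0897). CXCL17, a mucosal chemokine, was at 187 CPM in SNU-478 but at 0.462 and 0.818 CPM in SNU-869 and TGBC18TKB, against 0, 0.244 and 6.44 CPM (log2 difference 7.03, SE 1.29, adjusted p = 0.151). Without SNU-478 the differences were 0.87 for MANSC1 and 0.45 for CXCL17, so both rest on that line. CLDN10, a tight-junction claudin that forms ion channels, was at 99.7, 50.1 and 10.6 CPM, against 0, 0.0921 and 29.5 CPM (log2 difference 6.37, SE 1.23, adjusted p = 0.159), with SNU-478 and SNU-869 above all others. IL20RB, a subunit of the receptors for interleukins of the IL-20 family, was at 8.52, 118 and 23.3 CPM, against 1.13, 3.19 and 28.7 CPM (log2 difference 3.41, SE 0.67, adjusted p = 0.159), with SNU-869 alone above all others. BORCS5, TSC22D4, C2 and LINC00494 complete the 10 genes of smallest p and are given with the line that carried them.

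Among the 10 genes of smallest p with a negative difference, the edgeR adjusted p ran from 0.455 for ZNF606 to 0.778 for RBBP9. B3GLCT, a glucosyltransferase that acts on thrombospondin repeats, was at 5.46, 5.01 and 6.54 CPM, against 6.16, 26.3 and 114 CPM in the 16 others (log2 difference -2.37, SE 0.63). GMIP, a GTPase-activating protein, was at 10.4, 13.3 and 8.72 CPM, against 12.1, 26.6 and 40.6 CPM. ASH2L, a core subunit of histone H3 lysine methyltransferase complexes, was at 20.9, 16.6 and 27.2 CPM, against 25.8, 41.2 and 74.4 CPM (log2 difference -0.99, SE 0.29). In these 3 genes 2 of the ampullary lines lay below every other line. RAB9B, a small GTPase, had 0 counts in SNU-478 and SNU-869 and 0.273 CPM in TGBC18TKB, against 0.0988, 2.32 and 9.35 CPM, so the ampullary values lay at or near the counting floor. PTPRA, a receptor tyrosine phosphatase, was at 62.1, 48.9 and 66.2 CPM, against 55.5, 120 and 171 CPM, and RBBP9 at 24.7, 8.48 and 11.4 CPM, against 23.8, 29.9 and 85.5 CPM. ZNF606, LOC100506023, CSNK2A1 and ZFAND3 complete the 10 and had all 3 lines below the others.

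Genes shared by all 3 ampullary lines were few. All 3 lay above every one of the 16 others in 14 genes (0.0843% of those tested) and below every one in 11 genes (0.0662%). These genes were chosen by their values, so the levels describe them and test nothing. If site played no part, any given set of 3 lines, out of 969 possible sets, would rank highest in a fraction of about 0.00103 of genes. The same fraction holds for ranking lowest. Neither 0.0843% nor 0.0662% exceeds it, so the counts alone show no excess of shared genes in the ampullary lines. Among the 14, TMC5 had the widest gap, 1.23 log2 units between the lowest ampullary line and the highest other line, and was the only one with a gap of at least 1. TMC5, on chromosome 16, belongs to the transmembrane channel-like family. It was at 175 CPM in SNU-478, 393 CPM in SNU-869 and 236 CPM in TGBC18TKB, against 0, 8.82 and 74.6 CPM in the 16 others, of which EGI-1 was the highest. By site, TMC5 averaged 268 ± 112 CPM in ampullary lines (SD, n = 3), 4.08 ± 4.64 CPM in gallbladder, 45.2 ± 24 CPM in extrahepatic and 10.8 ± 12.2 CPM in intrahepatic lines. The order of the site means places extrahepatic lines next to the ampullary ones. The fitted log2 difference of TMC5 was 4.41 (SE 0.95, edgeR adjusted p = 0.243); DESeq2 and limma-voom called it, at adjusted p-values of 0.0128 and 0.0272.

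RASAL1, on chromosome 12, encodes a GTPase-activating protein of RAS and had the second widest gap, 0.91. It was at 26.9, 50.5 and 45.6 CPM in SNU-478, SNU-869 and TGBC18TKB, against 0, 2.89 and 14.2 CPM in the 16 others (log2 difference 3.47, SE 1.09, adjusted p = 0.783). CTRL, a chymotrypsin-like protease of pancreatic juice, was low throughout, at 3.23, 3.24 and 3.82 CPM in the ampullary lines, against 0.294, 1.05 and 2.37 CPM in the others. HAPLN3, a hyaluronan and proteoglycan link protein, was at 18.3, 17 and 16.4 CPM, against 0.253, 4.03 and 13.2 CPM. STK33, a serine/threonine kinase, was at 26.2, 8.09 and 11.6 CPM, against 0, 0.0844 and 7.1 CPM, and limma-voom called it at an adjusted p of 0.0272. The ampullary lines thus sat close together in CTRL and HAPLN3, whereas in STK33 the lowest of them, SNU-869, was close to Mz-ChA-2, the highest other line.

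Several of the remaining shared genes were expressed in every line. PTRH2, a mitochondrial peptidyl-tRNA hydrolase, was at 51.7, 78.1 and 62 CPM, against 17.4, 30.2 and 43.8 CPM (log2 difference 1.06, SE 0.29, adjusted p = 0.519). GALNT7, which extends mucin-type O-glycosylation, was at 224, 244 and 369 CPM, against 55, 126 and 214 CPM (log2 difference 1.14, SE 0.38, adjusted p = 0.857). TBL2 was at 111, 71.7 and 80.8 CPM, against 22.8, 53.9 and 69.8 CPM, and CFAP73, a cilium-associated protein, at 22.8, 23 and 21.7 CPM, against 6.86, 14.9 and 20.7 CPM. MTPAP, the mitochondrial poly(A) polymerase, had its lowest ampullary line at 52.1 CPM and its highest other line at 52 CPM. Transcripts without a known protein made up the rest, namely SUGT1P4-STRA6LP, DNAH17-AS1, RRP7BP and DIP2C-AS1. RRP7BP is a pseudogene and DNAH17-AS1 and DIP2C-AS1 are antisense to other genes. Whether the counting used strand is not stated, so reads of the antisense genes may be shared with their partners, and those of RRP7BP with its parent gene. RRP7BP was at 42.3, 42.5 and 30.2 CPM, against 13, 20.7 and 28.5 CPM. The other 3 were low. SUGT1P4-STRA6LP was at 2.56, 2.93 and 4.81 CPM, against 0, 0.127 and 2.31 CPM, with 6 of the 16 others at 0 counts. DNAH17-AS1 was at 1.08, 0.848 and 0.999 CPM, against 0, 0 and 0.768 CPM, with 9 at 0 counts, and DIP2C-AS1 at 4.8, 3.85 and 8.27 CPM, against 0, 0 and 3.76 CPM, with 10 at 0 counts.

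The 11 genes shared low included ZNF606, ZNF45, ZNF490, ZFP64 and ZNF473, members of the large family of zinc finger genes. ZNF606 had the widest gap, 0.57, with 0.579 CPM in SNU-478 and 0 counts in SNU-869 and TGBC18TKB, against 0.939, 8.33 and 33.2 CPM in the 16 others, all of which had counts. ZNF45 was at 11.8, 7.17 and 9.72 CPM, against 12.9, 19.5 and 41.5 CPM (log2 difference -1.19, SE 0.39, edgeR adjusted p = 0.856). MYL12A, a regulatory light chain of non-muscle myosin, was at 139, 126 and 126 CPM, against 147, 321 and 801 CPM (log2 difference -1.50, SE 0.52, adjusted p = 0.904). CSNK2A1, the catalytic alpha subunit of casein kinase 2, was at 40, 49.8 and 60.7 CPM, against 62.4, 86.6 and 138 CPM (log2 difference -0.83, SE 0.25, adjusted p = 0.662). RAB11B, a GTPase of recycling endosomes, was at 43.3, 35.7 and 44.4 CPM, against 46, 65.4 and 102 CPM. ZFAND3, KIAA1191 and LOC100506023 complete the list, with gaps of 0.06, under 0.01 and 0.44. Except for ZNF606 and LOC100506023, whose counts were low, every shared low gene remained expressed in the ampullary lines, at lower levels.

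Without Mz-ChA-2 the count of shared low genes was 18, and without SNU-245 or without TFK-1 it was 17. Against the 10 primary lines alone, 49 of the 16615 genes tested were shared high and 62 shared low. Leaving lines out can only raise such counts or leave them unchanged. With OZ counted among the others, 10 genes were shared high and 10 low; the 4 high genes lost were SUGT1P4-STRA6LP, RRP7BP, TBL2 and DIP2C-AS1.

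**Figure D2:**
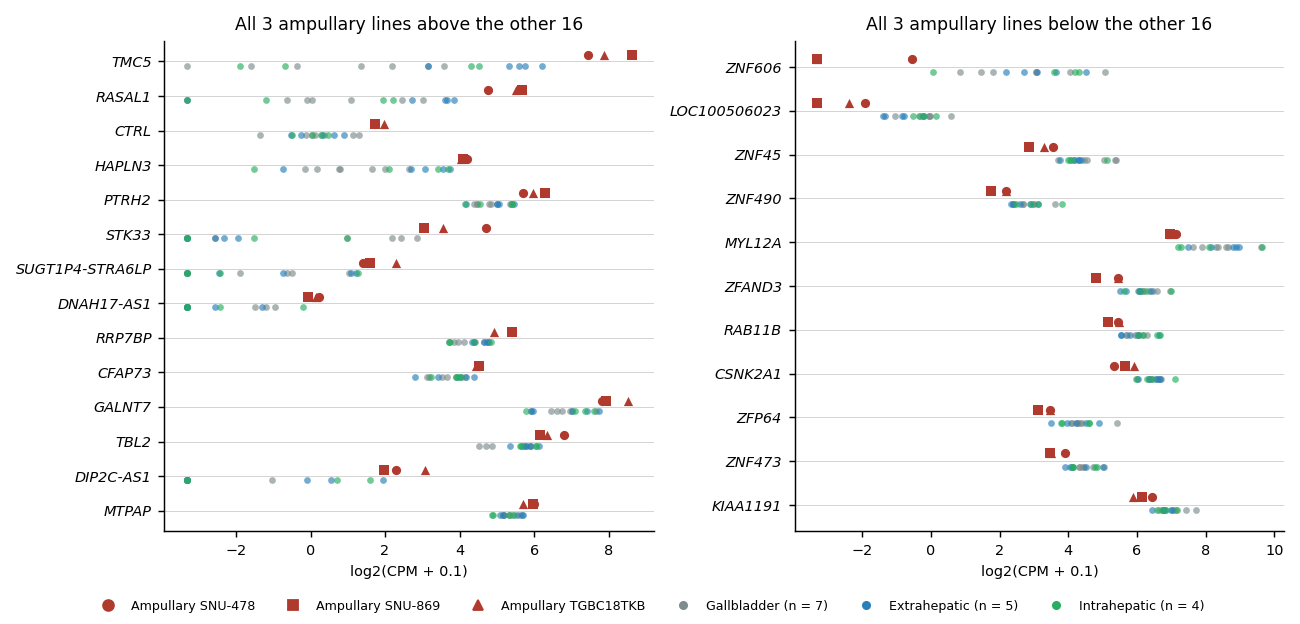
Levels of the 14 genes in which all 3 ampullary lines lie above the 16 others (left) and the 11 in which they lie below (right), as log2(CPM + 0.1) on the horizontal axis, with 1 row per gene. Red shapes are the ampullary lines and smaller points are the others by site. TMC5 shows the widest gap, and most of the other genes are separated by less than 1 log2 unit.

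A further class, added after the values were seen, held genes at 0 counts in all 3 ampullary lines with a median of at least 1 CPM in the others. It had 7 members (0.0421% of genes tested), SPART, ZNF518B, STAC, ZFP3, RBMS3, ADAMTS12 and GLRB. SPART, which encodes spartin, a protein of lipid droplets and endosomes, was at 0 to 135 CPM in the 16 others with a median of 14.8 CPM, and 4 of them also had 0 counts. RBMS3, an RNA-binding protein, was at 0 to 64 CPM with a median of 3.11 CPM, and 1 of the 16 had 0 counts. ADAMTS12, a secreted metalloprotease, was at 0 to 505 CPM with a median of 2.72 CPM and 6 lines at 0. No edgeR call was made for any of them, with unadjusted p-values of 0.00585 for RBMS3 to 0.0249 for GLRB. Silent genes of this kind occurred in every line singly. SNU-478 had 82, SNU-869 had 125 and TGBC18TKB had 108, against 66 to 392 in the 16 others (median 167.5).

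Genes carried by 1 ampullary line were defined by a level at least 2 log2 units above, or below, all 18 other lines. SNU-478 carried 27 genes high and 8 low (0.163% and 0.0481% of those tested), SNU-869 15 high and 18 low (0.0903% and 0.108%), and TGBC18TKB 24 high and 7 low (0.144% and 0.0421%). The 16 others carried 7 to 153 high (median 35) and 6 to 135 low (median 23) by the same rule. The ampullary lines thus lay within the range of the others and below its median for genes carried high. These counts used a prior count of 2. With a prior count of 0.5 the low counts were 19 in SNU-478, 36 in SNU-869 and 11 in TGBC18TKB, against 12 to 174 in the 16 others (median 41), so that TGBC18TKB then lay just below their range.

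**Figure D3:**
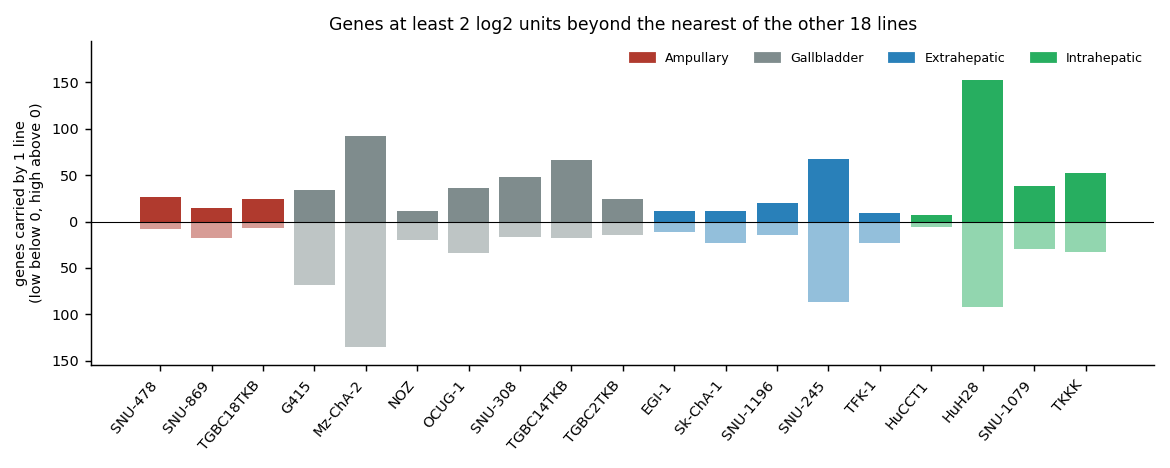
Number of genes at least 2 log2 units above (upward bars) or below (downward, paler bars) every other line, for each of the 19 lines on the horizontal axis, coloured by site. The 3 ampullary lines carry 15 to 27 genes high and 7 to 18 low, within the range of the other lines at a prior count of 2.

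SERPINB3, a squamous epithelial serpin, was at 110 CPM in SNU-478 and at 0 counts in SNU-869 and TGBC18TKB, against 0, 0 and 2.56 CPM in the 16 others, 5.34 log2 units above the next line. CXCL17 (187 CPM) was 4.82 above the next line. C2, a complement component, was at 109 CPM in SNU-478 and at 0.925 and 2.27 CPM in SNU-869 and TGBC18TKB, against 0, 0.649 and 4.62 CPM. GAL, the neuropeptide galanin, was at 317, 5.86 and 0 CPM, against 0, 0.0341 and 15.7 CPM, and CR2, the complement receptor of B cells, at 17.9, 1 and 0 CPM, against a highest other level of 1.04 CPM. C2 lies in the MHC region, where some entries of the table are copies of 1 gene, so counts of C2 and of HLA genes may be split among copies.

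Other genes that SNU-478 carried high are neighbours. In the order of the RefSeq table, 7 successive tested genes on chromosome 12, BCL2L14, LRP6, MANSC1, LOH12CR2, BORCS5, DUSP16 and CREBL2, were each at least 1 log2 unit above every other line. LRP6, a WNT co-receptor, was at 4455 CPM in SNU-478, against a median of 62.8 and a highest level of 523 CPM in the 18 other lines, the other 2 ampullary lines included. DUSP16, a phosphatase of MAP kinases, was at 1626 CPM, against 31.9 and 198 CPM, and CREBL2 at 728 CPM, against 44.2 and 130 CPM. The run ended between CREBL2 and GPR19, which was at 0.662 CPM in SNU-478, against a median of 4.5 CPM. CDKN1B, the next gene, encoding the cyclin-dependent kinase inhibitor p27, was at 66.3 CPM, against 78.5 CPM. Further along, H2AJ (594 CPM, against a median of 47.5 CPM), WBP11 (1069 CPM, against 107 CPM) and ARHGDIB (963 CPM, against 21.5 CPM) were again above every other line. In BORCS5, which was among the 10 genes of smallest p, SNU-478 had 148 CPM, whereas SNU-869 and TGBC18TKB had 10.6 and 2.36 CPM, against 2.98, 5.34 and 12.4 CPM in the 16 others. Its difference was 3.17 (SE 0.59, edgeR adjusted p = 0.151), and 0.15 without SNU-478.

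SNU-478 had few or no counts of several genes that every other line expressed. FAT1, an atypical cadherin and tumour suppressor, was at 0.165 CPM in SNU-478, whereas SNU-869 and TGBC18TKB had 507 and 557 CPM, against 92.5, 374 and 706 CPM in the 16 others. RUNX1, a transcription factor, was at 1.32 CPM in SNU-478 and at 178 and 190 CPM in SNU-869 and TGBC18TKB, against 46, 98.2 and 236 CPM. PABIR2, on the X chromosome next to PABIR3 and MOSPD1, which were low with it, had 0 counts, against 37, 171 and 276 CPM in the 16 others. DLC1, a GTPase-activating protein, had 0 counts too, against 2.66, 26 and 115 CPM. In these genes SNU-478 stood outside both its site and all other sites.

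Among the genes SNU-869 carried was HLA-DRA, a chain of the MHC class II molecules that present peptides to CD4 T cells. HLA-DRA was at 1.74, 254 and 1.73 CPM in SNU-478, SNU-869 and TGBC18TKB, against 0, 0.953 and 45.7 CPM in the 16 others. TMPRSS11E, an airway-type serine protease, was at 158 CPM in SNU-869 and at most 0.331 CPM in the other ampullary lines, against 0, 0.038 and 3.96 CPM in the 16 others, 5.26 log2 units above the next line. TCN1, a vitamin B12 carrier of secretions, was at 47.9, 341 and 7.27 CPM, against 0, 0.81 and 51.9 CPM. SLC5A1, the sodium-glucose cotransporter of enterocytes, had 0 counts in SNU-478, 53.9 CPM in SNU-869 and 0.0908 CPM in TGBC18TKB, against 0, 0.0794 and 10.2 CPM. CHST6, a sulfotransferase of keratan sulfate, was at 3.23, 49.7 and 4.54 CPM, against 0.14, 1.57 and 6.79 CPM. RLBP1, a retinoid-binding protein, was at 0, 55.9 and 0.0908 CPM, against 0, 0 and 10.5 CPM. HSPA6, an inducible HSP70 chaperone, was at 0.579, 11.5 and 0.182 CPM, against 0.0745, 0.499 and 1.55 CPM. PPP1R16B was at 0, 11.4 and 0 CPM, against 0, 0.0368 and 1.18 CPM.

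At a gap of 1 log2 unit SNU-869 had 81 low genes, of which 31 were on chromosome 5 and 28 on chromosome 19, out of 749 and 1156 tested genes there. On chromosome 5 they included 11 successive genes of the protocadherin gamma cluster, from PCDHGA8 to PCDHGC5, whose transcripts share exons, so their counts are not independent. On chromosome 19 the zinc finger genes ZNF160, ZNF83 and ZNF468 had 0 counts in SNU-869, whereas they were at 20.8, 8.6 and 16.1 CPM in SNU-478 and 47.7, 189 and 15 CPM in TGBC18TKB, against medians of 34.7, 68.6 and 24.6 CPM in the 16 others. GMDS, the first enzyme of GDP-fucose synthesis, also had 0 counts in SNU-869, with 40.3 and 17.6 CPM in SNU-478 and TGBC18TKB, against 5.32, 18.4 and 53.4 CPM.

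At a gap of 1 log2 unit TGBC18TKB had 96 high genes, of which 47 were on chromosome 7, out of 832 tested genes there. The longest run held 15 successive genes from CASTOR3P to NYAP1, the longest in any ampullary line; among the 16 others the runs of high genes had up to 18 members, in SNU-1196 on chromosome 6. Of the 61 tested genes centred on TSC22D4, 28 were at least 1 log2 unit above every other line. TSC22D4 was at 79.4, 85.8 and 1102 CPM in SNU-478, SNU-869 and TGBC18TKB, against 29.9, 64.8 and 132 CPM in the 16 others (log2 difference 2.59, SE 0.51, edgeR adjusted p = 0.159, and 0.24 without TGBC18TKB). The run includes pseudogenes and near-identical paralogs such as PMS2P1, STAG3L5P and PILRB, whose counts are uncertain. MCM7, a subunit of the replicative helicase, was at 1910 CPM in TGBC18TKB, against a median of 282 and a highest level of 818 CPM in the 18 other lines. ZNF3, a zinc finger gene, was at 57.5, 32.9 and 418 CPM in the 3 ampullary lines, against 22, 41.9 and 72.6 CPM in the 16 others, and PPP1R35, a centriole protein, at 35.8, 16.3 and 327 CPM, against 8.47, 25.2 and 52.3 CPM. SPMIP1 was at 3.47, 1.93 and 122 CPM, against 0.588, 4.73 and 22 CPM, and SPACDR at 1.08, 2.39 and 21.9 CPM, against 0, 0.518 and 3.48 CPM. TAF6, a subunit of the general transcription factor TFIID, was in TGBC18TKB at 878 CPM, against a median of 105 and a highest level of 160 CPM in the 18 other lines, and ZKSCAN1 at 2155 CPM, against 148 and 743 CPM. AZGP1, a secreted zinc-binding glycoprotein and one of the 8 genes called by limma-voom, lies among these 61 genes. It was at 10.2, 50.1 and 107 CPM, against 0, 0.361 and 47.6 CPM in the 16 others, so that SNU-869 and TGBC18TKB lay above all of them. OZ, which is not among the 16, was at 276 CPM.

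Outside chromosome 7, TGBC18TKB carried the non-coding RNAs LINC00494 and LINC01436. LINC00494 was at 0.414, 0 and 36.4 CPM, against 0, 0.0848 and 0.969 CPM in the 16 others, 5.02 log2 units above the next line. Among its low genes, PLXNA2, a semaphorin receptor, had 1 count in TGBC18TKB, with 28.4 CPM in SNU-478 and 2.54 CPM in SNU-869, against 2.83, 38.7 and 131 CPM. TUBB6, a beta-tubulin, was at 9.26, 53 and 0.273 CPM, against 2.19, 95.9 and 427 CPM. ARID3A, a DNA-binding protein, was at 3.23, 3.24 and 0 CPM, against 1.45, 3.95 and 99.6 CPM, and RNF24 at 8.44, 14.2 and 0.636 CPM, against 3.88, 18.5 and 75.7 CPM. In PLXNA2 both SNU-869 and TGBC18TKB were below the 16 others.

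**Figure D4:**
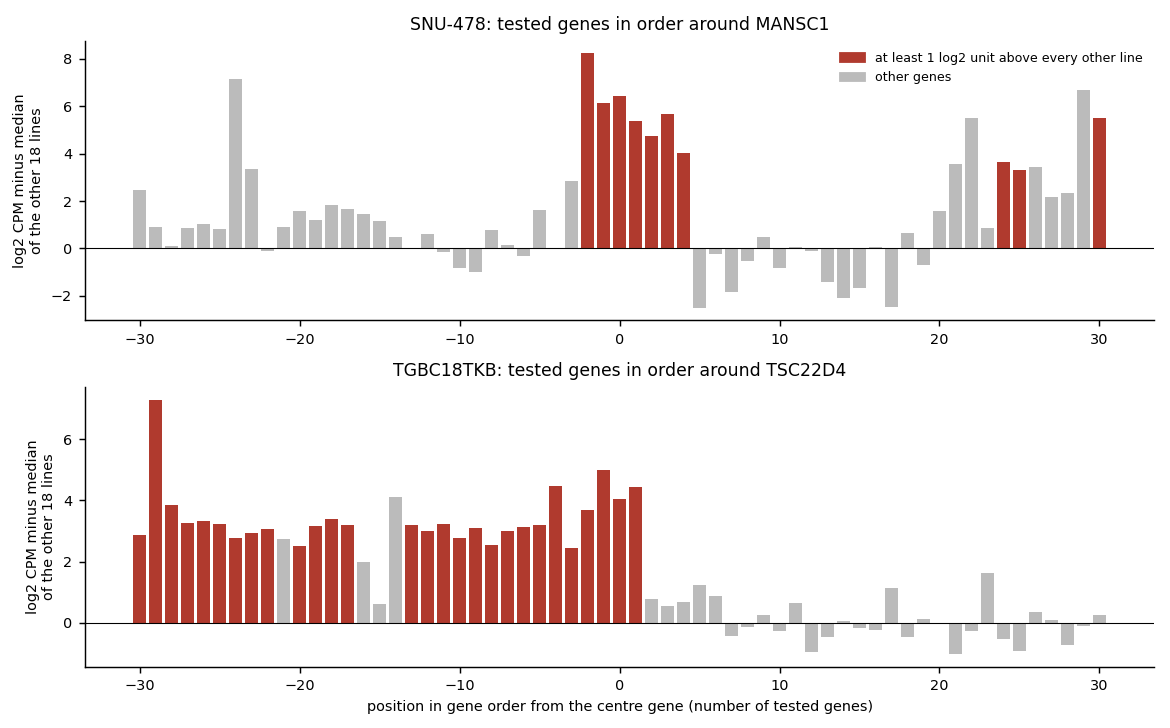
Level of SNU-478 around MANSC1 on chromosome 12 (top) and of TGBC18TKB around TSC22D4 on chromosome 7 (bottom), as log2 CPM minus the median of the 18 other lines, for 61 tested genes in gene order. Red bars are genes at least 1 log2 unit above every other line, 10 genes in SNU-478 and 28 in TGBC18TKB.

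Pairs of ampullary lines shared few genes. With both lines at least 1 log2 unit above the 16 others and the third line not above them, SNU-478 and SNU-869 shared PIGR and SLC16A10, a transporter of aromatic amino acids (0.012% of genes tested). SNU-478 and TGBC18TKB shared LINC00896 (0.00602%), and SNU-869 and TGBC18TKB shared HEPHL1, a copper-dependent ferroxidase, and ELF5, an epithelial ETS factor (0.012%). ELF5 was at 69.3 CPM in SNU-869 and 97.2 CPM in TGBC18TKB but at 0.0827 CPM in SNU-478, against 0, 0.123 and 32 CPM in the 16 others. SLC16A10 was low throughout, at 3.72, 1.7 and 0.363 CPM, against 0, 0.038 and 0.763 CPM.

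Gene lists for the tissue were described by their counts, since they were chosen with earlier results of these data known. Apart from PIGR no member of any list was called by edgeR. Of the mucosal defence list, 20 of 25 genes were tested, and 5 had an unadjusted p under 0.05, all higher, beside 2.88% of all genes. They were PIGR, CXCL17, LYZ, CCL20 and CP, and the list's median difference was 1.20, beside -0.11 over all genes. The mean level of the list relative to the 19 lines was 3.43 log2 units in SNU-478, 1.47 in SNU-869 and 0.49 in TGBC18TKB, against -2.59 to 2.49 in the 16 others. SNU-478 was thus above all other lines, and SNU-869 and TGBC18TKB were within the range of the 16. CP, ceruloplasmin, was at 311, 26.2 and 11.1 CPM, against 7.27, 12 and 169 CPM. LYZ, lysozyme, was at 12.9, 1100 and 14.4 CPM, against 0.0872, 1.13 and 3057 CPM. CFB, complement factor B, was at 1832, 17.3 and 124 CPM, against 0.341, 63.9 and 524 CPM, with SNU-478 alone above all others (unadjusted p = 0.0606). LCN2, the siderophore-binding lipocalin 2, was high in all 3, at 609, 2073 and 1206 CPM, against 0, 25.6 and 1002 CPM, with 2 of the 16 others above the lowest ampullary line (edgeR unadjusted p = 0.0691).

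All 10 genes of the MHC class II list were tested, and 6 were higher at an unadjusted p under 0.05, beside 2.88% of all genes. The list median was 3.28, beside -0.11 over all genes. The 3 ampullary scores of the list were 0.12 for SNU-478, 5.20 for SNU-869 and -0.72 for TGBC18TKB, against -2.53 to 3.31 in the 16 others, so SNU-869 alone stood above them. CIITA, the transcriptional coactivator that controls class II genes, followed the same order, at 0.662, 26.9 and 0.636 CPM, against 0, 0.594 and 15.2 CPM. CD74, the invariant chain, was at 121, 1522 and 163 CPM, against 0, 18.3 and 512 CPM. HLA-DRB1 was at 0.744, 59.2 and 0.363 CPM, against 0, 0.82 and 135 CPM. HLA-DMA was at 28.9, 60.6 and 9.36 CPM, against 1.25, 7.47 and 66.8 CPM. HuH28 was above SNU-869 in both of these genes. HLA-DQB1 was at 6.2, 106 and 0 CPM, against 0, 0.424 and 20.8 CPM, HLA-DPB1 at 0, 36.5 and 0.0908 CPM, against 0, 0.158 and 8.2 CPM, and HLA-DMB at 3.56, 21 and 0.363 CPM, against 0, 0.895 and 16.7 CPM. None of the 21 interferon target genes had an unadjusted p under 0.05 in either direction (median -0.43). Of the 17 NF-kappaB targets, CXCL3 was higher at an unadjusted p under 0.05, at 42.4 CPM in SNU-478 and at 4.55 and 5.36 CPM in SNU-869 and TGBC18TKB, against 0, 2.19 and 10.4 CPM.

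Of the 17 WNT targets, 5 were higher at an unadjusted p under 0.05, beside 2.88% of all genes, and none was lower. The list median was 1.03, beside -0.11 over all genes. The 5 higher genes were MYC, LEF1, SP5, AXIN2 and RNF43. AXIN2, a feedback inhibitor of WNT signalling, was at 45.5, 179 and 32 CPM in SNU-478, SNU-869 and TGBC18TKB, against 0.588, 7.87 and 238 CPM, with 2 of the 16 others above the lowest ampullary line (log2 difference 2.12, edgeR adjusted p = 0.923). RNF43, a ubiquitin ligase that removes WNT receptors, was at 47, 511 and 115 CPM, against 0, 19.2 and 236 CPM. MYC was at 817, 207 and 186 CPM, against 25.4, 127 and 577 CPM. LGR5, a stem cell receptor that is also a WNT target, was at most 0.925 CPM in the ampullary lines, against 0, 0.244 and 85.6 CPM. The ampullary scores of this list were 0.22, 1.92 and 0.75, against -2.56 to 2.64 in the 16 others, with a median of -0.18. Only the extrahepatic lines SNU-1196 and SNU-245 scored above them. The next line, TGBC14TKB at 0.20, was just below SNU-478.

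Intestinal markers gave no common ampullary pattern. Of 25 genes on the intestinal list 17 were tested, MUC2 was higher at an unadjusted p under 0.05 and the median difference was -0.65. MUC2, the gel-forming mucin of goblet cells, was at 83.3 CPM in SNU-478 and at most 0.0908 CPM in SNU-869 and TGBC18TKB, against 0, 0.0817 and 23.1 CPM. In OZ, which is not among the 16 others, MUC2 was at 501 CPM. CDX2, the intestinal homeobox factor, was at 5.05, 6.01 and 7.36 CPM, against 0, 3.92 and 133 CPM. KRT20 was at 0.331, 300.3 and 0.0908 CPM, against 0, 0.187 and 949.9 CPM, and CEACAM5 at 364, 1.62 and 0 CPM, against 0, 1.56 and 1831 CPM. FABP1, the fatty acid binding protein of enterocytes and hepatocytes, was at most 0.331 CPM in the ampullary lines, and 2017 CPM in SNU-245, an extrahepatic line that had the highest score of this list at 7.03. The ampullary scores were 1.48, 0.35 and -1.17, within the range of the 16 others. HOXB13, a homeobox gene of the hindgut, was at 13.7, 10.1 and 7.09 CPM, against 0, 2.81 and 11.1 CPM (log2 difference 4.06, SE 0.93, edgeR adjusted p = 0.394), and was among the genes DESeq2 called higher. The 5 extrahepatic lines had HOXB13 at 2.8 to 8.6 CPM, overlapping the ampullary lines, and the 4 intrahepatic lines at 0 CPM. Of 22 gut region transcription factors tested, HOXB13 and SOX2 had an unadjusted p under 0.05, both with a positive difference (list median -0.30). SOX2, a factor of foregut epithelium, was at 26.7, 30 and 0 CPM, against 0, 0 and 120.5 CPM.

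On the pancreatobiliary duct list 19 of 20 genes were tested, AQP5 was higher and SPP1 lower at an unadjusted p under 0.05, and the median was 0.18. AQP5, a water channel of secretory epithelia, was at 12.3, 117 and 27.3 CPM, against 0, 0.289 and 155 CPM. SPP1, osteopontin, was at 0.0827, 0.848 and 0.273 CPM, against 0.0756, 0.678 and 5292 CPM, and the median of the others lay within the ampullary range. MUC1, a membrane mucin, was at 670, 313 and 313 CPM, against 3.98, 46.3 and 526 CPM (unadjusted p = 0.0607). CFTR, the chloride channel of duct cells, was at 54.3, 60.8 and 0.273 CPM, against 0, 0.0714 and 63.9 CPM. Of 11 gastric mucosa genes tested, 4 were higher and 1 lower at an unadjusted p under 0.05, beside 2.88% and 2.38% of all genes. The list median was -0.70, beside -0.11 over all genes, with 5 positive and 6 negative differences. The 4 higher genes were TFF1, SOX2, AGR2 and CAPN9. TFF1 was at 92.9 CPM in SNU-478 and 0 CPM in SNU-869 and TGBC18TKB, against 0, 0.156 and 20.45 CPM. AGR2, a disulfide isomerase of mucous cells, was at 1991, 208 and 105 CPM, against 0.147, 74.1 and 863 CPM. SPINK1, the trypsin inhibitor, and FGB, fibrinogen beta, were the members of the pancreatic acinar and liver lists with an unadjusted p under 0.05. Of the 15 genes on each of these lists, 3 and 9 were tested. SPINK1 was at 402, 0 and 4.27 CPM, against 0, 0.0811 and 665.5 CPM, with TKKK above SNU-478. FGB was at 134, 0.154 and 0 CPM, against 0, 0 and 13.9 CPM. CAPN9, a calpain of the stomach and gut, was at 10.5, 0.154 and 1.73 CPM, against 0, 0.108 and 14 CPM (unadjusted p = 0.00134). Of 11 squamous genes tested SERPINB3 alone had an unadjusted p under 0.05 (list median -0.31); KRT5, a basal keratin, was at 35.8, 1.93 and 0 CPM, against 0, 0.162 and 8.45 CPM. Of 5 neuroendocrine genes tested CHGA, chromogranin A, had an unadjusted p under 0.05, with 0 counts in all 3 ampullary lines, against 0, 0.0848 and 7.3 CPM.

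Neither epithelial nor mesenchymal genes held a call. Over all 16615 genes tested, 7035 had a positive difference and 9580 a negative one. Of 18 epithelial genes 16 had a positive difference, none had an unadjusted p under 0.05, and the median was 0.59. Of 17 mesenchymal genes 14 had a negative difference, the median was -2.13, and TWIST1 alone had an unadjusted p under 0.05, with a positive difference and 2.93 CPM in SNU-869 and 0 counts in SNU-478 and TGBC18TKB. The 3 ampullary lines had epithelial scores of 1.49, 2.23 and 2.03, against -5.22 to 2.88 in the 16 others, with a median of 0.23. Their mesenchymal scores were -0.32, -1.38 and -1.12, with 8, 10 and 10 of the 16 others above them. The 16 others ran from -3.36 to 6.42, with a median of -0.26 and HuH28 the highest. CDH1, E-cadherin, was at 34.2 CPM in SNU-478 and at 632 and 608 CPM in SNU-869 and TGBC18TKB, against 0.699, 296 and 915 CPM. VIM, vimentin, was at 0.248, 510 and 6.27 CPM, against 0.0735, 127 and 2538 CPM. Of the leukocyte, fibroblast and endothelial lists 5, 9 and 5 genes were tested, and none had an unadjusted p under 0.05. The summed levels of the leukocyte, fibroblast and endothelial lists reached 54, 47.6 and 5.05 CPM at most in the ampullary lines, against up to 444, 1497 and 349 CPM in the 16 others.

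None of the receptor kinases and drug targets was called. Of 29 tested, CLDN18 was lower at an unadjusted p under 0.05, at 0.0827 to 0.182 CPM in the ampullary lines, against 0.0682, 0.403 and 12.4 CPM. ERBB2 was at 290, 230 and 1455 CPM, against 34.6, 194 and 2237 CPM, with TGBC18TKB above all of the 16 others but TKKK. MET was at 328, 955 and 1245 CPM, against 70.6, 332 and 2017 CPM. MSLN, mesothelin, was at 279, 42.1 and 930.3 CPM, against 0.156, 69.4 and 529 CPM. Of 25 tumour suppressors and drivers of ampullary cancer, RNF43 had an unadjusted p under 0.05. CDKN2A had 0 counts in SNU-478 and 31.3 and 242 CPM in SNU-869 and TGBC18TKB, against 0 to 427 CPM with a median of 39.8 CPM and 4 lines at 0. The neighbouring MTAP was expressed in all 3, at 48.1, 60 and 196 CPM. ELF3, an epithelial transcription factor that is often mutated in ampullary cancer, was at 660, 305 and 583 CPM, against 0.294, 246 and 1230 CPM. NF1, a RAS inhibitor, was at 98.4, 286 and 292 CPM, against 107, 153 and 208 CPM, with SNU-478 below and the other ampullary lines above all 16 others. Of 20 detoxification genes SULT4A1 alone had an unadjusted p under 0.05, and the median was -1.36. CES1, a carboxylesterase that activates and clears drugs, was at 0, 0 and 0.0908 CPM, against 0, 0.134 and 941 CPM.

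**Figure D5:**
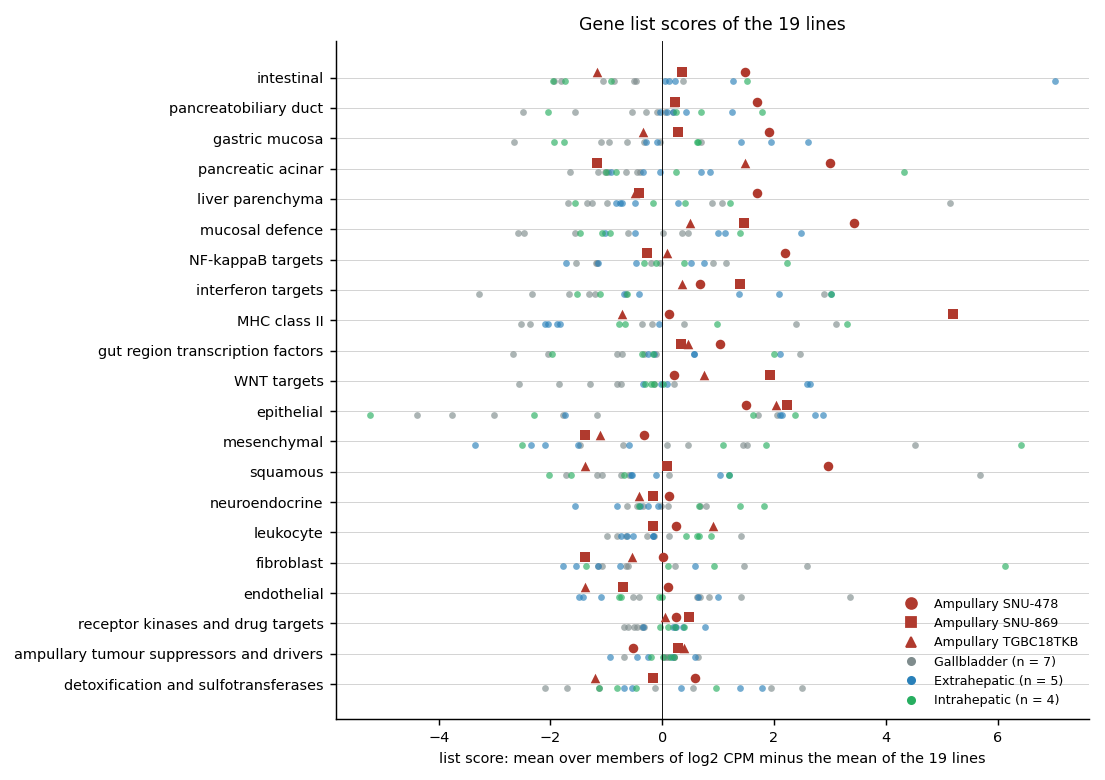
Score of each gene list in each of the 19 lines, the mean over its tested members of log2 CPM minus the mean of the 19 lines, on the horizontal axis, with 1 row per list. Red shapes are the ampullary lines and smaller points the others by site. SNU-869 stands apart at 5.20 for MHC class II and SNU-478 at 3.43 for mucosal defence; in most other lists the ampullary lines lie among the others.

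By overall likeness no ampullary line was nearest to another ampullary line, though the margins were small for SNU-869 and TGBC18TKB. Pearson correlations of log2 CPM over the 2000 most variable genes describe pairs of libraries across genes, which are not independent. SNU-478 was most like TFK-1 (0.591), then SNU-869 (0.554) and TGBC18TKB (0.54). SNU-869 was most like SNU-1196 (0.629), then TGBC18TKB (0.627) and EGI-1 (0.577). TGBC18TKB was most like EGI-1 (0.637), then SNU-869 (0.627) and SNU-1196 (0.619). The nearest line of each was thus extrahepatic, and the median over the 16 others was 0.421 for SNU-478, 0.36 for SNU-869 and 0.42 for TGBC18TKB.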

How the data were processed

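The authors deposited raw counts of reads per gene as whole numbers, with no normalization, per the file headers and values. Per the submitters' processing notes featureCounts, TopHat2 2.0.8, Trimmomatic and Picard 1.69 were used with hg19/GRCh37; the strand setting is not given in the sources used here. The table holds 24222 RefSeq entries. Symbols came from the GRCh38.p14 RefSeq table (23512) or GENCODE metadata (355); 355 entries, with 0.484% of the counts, kept no symbol. For 335 entries a copy suffix was removed first. The RefSeq table served for names and gene order only. No column belonged to no sample.

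The quasi-likelihood test of edgeR 4.0.16 (R 4.3.3) was run on these counts (filterByExpr on site, TMM, robust F test, two-sided, Benjamini-Hochberg over 16615 genes; common dispersion 0.915), with site at 4 levels and OZ left out. Levels are CPM with TMM factors over 20 lines; classes used log2 CPM with a prior count of 2. On simulated data for the ampullary contrast over 16615 genes the test recovered 2%, 28%, 50% and 76% of genes changed by 1, 2, 3 and 5 log2 units, with 8 false calls. The changed genes were drawn only from those above a minimum mean count, and each shift was the same in all 3 ampullary lines. Changes in genes of low count, or in 1 or 2 lines only, were not simulated. DESeq2 1.42.0, limma 3.58.1, other scalings, filters, covariates and left-out lines were alternatives. Floors cover counting error only.

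Members, lists and classes were chosen with earlier results of these data known. Genes were named when called, when among the 10 of smallest p in a direction, the 12 with the widest shared gap in each direction, the 8 carried high or 4 carried low by a line, the 4 of a pair, or the 2 to 4 of smallest p in a list; further list members (such as LCN2, KRT20, CEACAM5, MSLN and CFTR), the genes called by limma-voom, the class at 0 counts, and the neighbours of MANSC1 and TSC22D4 were chosen after their values were seen.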

Additional observations from a re-analysis of the deposited data

Results flagged for a closer look

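A few single lines stood apart from their own site. TMC5 in SNU-1196 was 8.77 CPM, far below the other 4 extrahepatic lines, and RASAL1 in Sk-ChA-1 was 0 CPM, likewise below the rest of the extrahepatic lines. The total count of HuH28, 14.3 M (14247144 counts), was far above those of the other 3 intrahepatic lines. About 1 in 20 groups is flagged in this way by chance.

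OZ was left out of the main comparison and entered only alternatives. It was above all 16 other lines in several genes. Among these were TSC22D4 (175 CPM), SUGT1P4-STRA6LP (2.91 CPM), RRP7BP (37.1 CPM), TBL2 (77.8 CPM) and DIP2C-AS1 (4.5 CPM). In SUGT1P4-STRA6LP, RRP7BP, TBL2 and DIP2C-AS1, which all 3 ampullary lines shared, OZ also lay above the lowest ampullary line. In AZGP1 (276 CPM) and MUC2 (501 CPM) OZ lay above the 16 others and all 3 ampullary lines.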

How the results depend on the processing

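PIGR kept its direction under every alternative run (log2 difference 8.10 to 11.64). It lost the edgeR call with repository as a covariate (9.99), with origin as a covariate (9.20) and among primary lines only (9.38, where PRSS21 was called instead); the cause was not tested. The count of higher genes, 1 in the main comparison, was 21 by DESeq2, 8 by limma-voom, 2 with the 16 others as 1 group, 0 with repository and 0 with origin as a covariate, 2 with OZ as extrahepatic and 4 with OZ as intrahepatic. With 1 line left out at a time it ran from 1 to 11: it was 11 without SNU-869 and 3 without TGBC18TKB. The count of lower genes, 0 in the main comparison, was 112 by DESeq2. Genes of the lists past the threshold were 1, and 1 to 2 with 1 ampullary line left out.

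Genes shared by all 3 lines, 14 high and 11 low, were 49 and 62 among primary lines and 1 and 0 at a gap of at least 1, with 15 to 20 high and 11 to 18 low when 1 other line was left out. Fewer lines to compare with can only raise these counts or leave them unchanged. Genes carried by 1 line depend on the gap by construction. At gaps of 1 and 3 SNU-478 had 74 and 16 high (37 low at 1), SNU-869 had 58 and 2 high and 81 and 8 low, and TGBC18TKB had 96 and 2 high and 27 and 2 low. A prior count of 0.5 gave 19, 36 and 11 low. Over the values of 41 named genes under the alternatives, 1313 kept their side of the threshold, 28 passed it, 3 no longer did and 0 reversed. Of the list medians 91 moved by less than the spread of the ampullary scores and 14 by more. No paired analysis was possible because the replicate numbers follow the order of deposition and pair no lines. Depth limits values under about 0.28 CPM.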
